A study of Mus musculus with 6 samples.

Results

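The cytosolic heat shock genes are 9 genes taken by symbol from a table of 50763 mouse genes. They encode the transcription factor HSF1, the Hsp70 family proteins of Hspa1a, Hspa1b and Hspa8, the Hsp110 protein of Hsph1, the Hsp40 protein of Dnajb1, the small heat shock protein of Hspb1, and the 2 cytosolic Hsp90 proteins of Hsp90aa1 and Hsp90ab1. All 9 were found and all 9 passed the filter on low counts, which left 16730 genes to test. Transcripts were measured by RNA sequencing of poly(A) RNA in mouse embryonic fibroblasts, mesenchymal cells grown from dissociated embryos, here from E13.5 embryos of strain C57BL/6J. The WT group was 3 libraries of cells from wild-type Sod2 mice. The K68R group was 3 libraries of cells from mice carrying a CRISPR knock-in that replaces a lysine of SOD2, the superoxide dismutase of the mitochondrial matrix, with arginine. Both groups were kept in culture for a short time, with no agent named. The labels call the libraries of a genotype biological replicates but name no embryo or culture, so p-values measure only the spread between these libraries, which may be technical.

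HSF1 is held inactive by chaperones and is released when misfolded proteins draw these chaperones away, after which it forms trimers that bind heat shock elements, arrays of inverted GAA repeats, in the promoters of chaperone genes. Hspa1a and Hspa1b are its classic inducible targets and are low in unstressed cells, while Hspa8 and Hsp90ab1 are made at high levels all the time. Hsp40 proteins bring substrates to Hsp70 and start its ATP hydrolysis, Hsp110 proteins exchange its nucleotide, and Hsp90 takes over late folding intermediates such as kinases and steroid receptors.

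RefSeq promoter windows of build GRCm38.p6 were at hand for 5 of the 9 genes: Hspa1a, Hspa1b, Hspb1, Hsph1 and Dnajb1. The 250 bases before the start sites of Hspa1a (chr17:34972157-34972406, minus strand) and Hspa1b (chr17:34959239-34959488, minus strand) are shown because they were all but identical, as are the shorter stretches of Hspb1 (chr5:135887782-135887841, plus strand) and Hsph1 (chr5:149636330-149636389, minus strand) that hold a heat shock element. Capitals mark a match to 2 inverted units, GAANNTTC or TTCNNGAA, searched on both strands, where matches may overlap.
Hspa1a: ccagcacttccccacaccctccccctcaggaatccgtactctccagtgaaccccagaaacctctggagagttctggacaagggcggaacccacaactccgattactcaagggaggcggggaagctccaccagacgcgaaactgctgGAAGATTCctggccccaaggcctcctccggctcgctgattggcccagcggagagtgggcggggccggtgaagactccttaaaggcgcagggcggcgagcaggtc
Hspa1b: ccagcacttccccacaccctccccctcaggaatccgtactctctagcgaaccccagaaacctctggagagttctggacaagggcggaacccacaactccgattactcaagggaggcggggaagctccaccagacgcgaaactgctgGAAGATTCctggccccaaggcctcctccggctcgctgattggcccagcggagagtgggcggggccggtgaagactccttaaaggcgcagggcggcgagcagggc
Hspb1: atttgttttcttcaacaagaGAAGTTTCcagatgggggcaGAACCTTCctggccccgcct
Hsph1: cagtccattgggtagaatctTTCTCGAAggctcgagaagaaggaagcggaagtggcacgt
The Hspa1a and Hspa1b stretches differed at 3 of 250 bases, C44T, T47C and T249G, counted from the first printed base with the Hspa1a base first. The 2-unit match stood at the same place in both, its first base 104 bases before the start. Hspb1 had 2 such matches, with first bases 117 and 97 bases before its start. Of 32851 promoter windows of 300 bases, which also hold 50 bases after the start, 15.1% had a 2-unit match. A 3-unit match, GAANNTTC followed by NNGAA or TTCNNGAA followed by NNTTC, was in 0.603% of windows and, among these 5 genes, in Hsph1, where it lay after the annotated start. Neither of the 2 windows of Dnajb1 held a match, which says only that these letters are not in those windows.

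In K68R, Hsf1, Hspa1a, Hspa1b and Hspb1 were higher, Hspa8, Hsp90aa1 and Hsph1 were lower, and Dnajb1 and Hsp90ab1 did not pass the test. The largest difference was in Hspa1a, 4.67-fold, followed by Hspa1b at 3.42-fold, Hsf1 at 2.13-fold and Hspb1 at 1.66-fold. The decreases were 1.38-fold for Hspa8, 1.30-fold for Hsp90aa1 and 1.08-fold for Hsph1. Thus 4 members were called higher and 3 lower at an adjusted p under 0.05 (edgeR quasi-likelihood test, Benjamini-Hochberg over all genes tested). The background is wide, since 81.4% of all genes tested were called, 40.8% higher and 40.5% lower. The values of the genotypes did not overlap in 7 of the 9 members and in 82.3% of genes tested, so the share of members called was near the background.

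**Figure D1:**
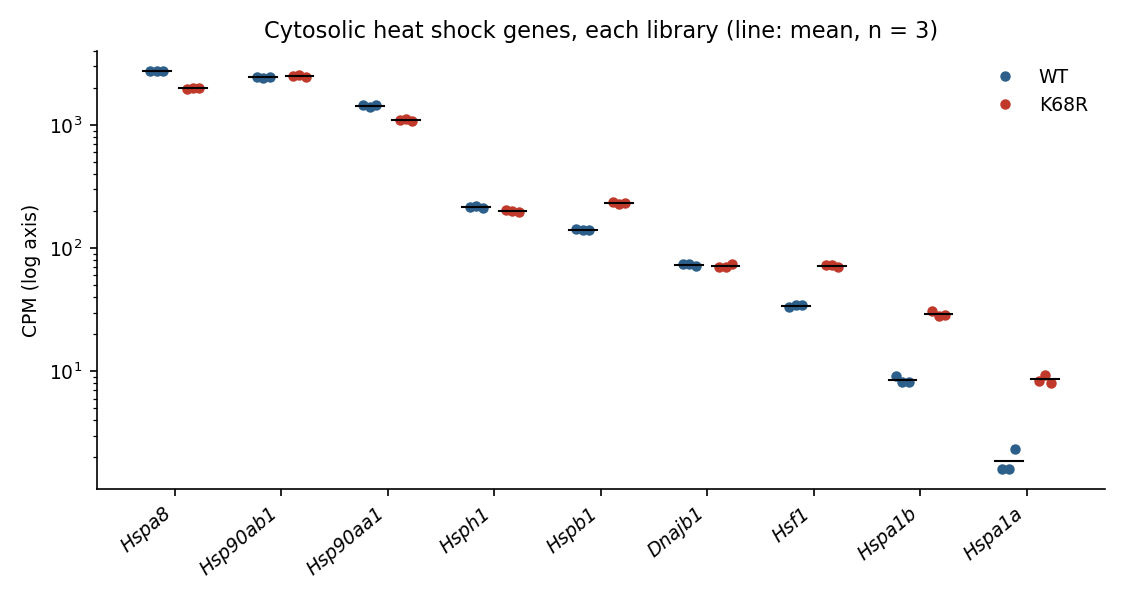
Level of each member in every library, in CPM (counts divided by the normalized library size) on a log axis, with 3 points and a mean line for each genotype. The K68R points of Hspa1a, Hspa1b, Hsf1 and Hspb1 stand above all WT points, those of Hspa8, Hsp90aa1 and Hsph1 stand below them, and those of Hsp90ab1 and Dnajb1 overlap.

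The 4 higher members had the highest GC content of the 9, from 57.8% in Hsf1 to 61.7% in Hspb1, and the other 5 had at most 52.7%. Fold changes of the members and of the named partners are therefore also given with offsets, which remove from each library a smooth surface over exon length and GC content. With offsets 5 members were called higher and 3 lower, beside 75.2% of genes called with offsets, 37.6% in each direction. The added higher member was Hsp90ab1, and among the lower ones Dnajb1 took the place of Hsp90aa1. The part of GC content in the unadjusted differences was not tested beyond this.

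**Figure D2:**
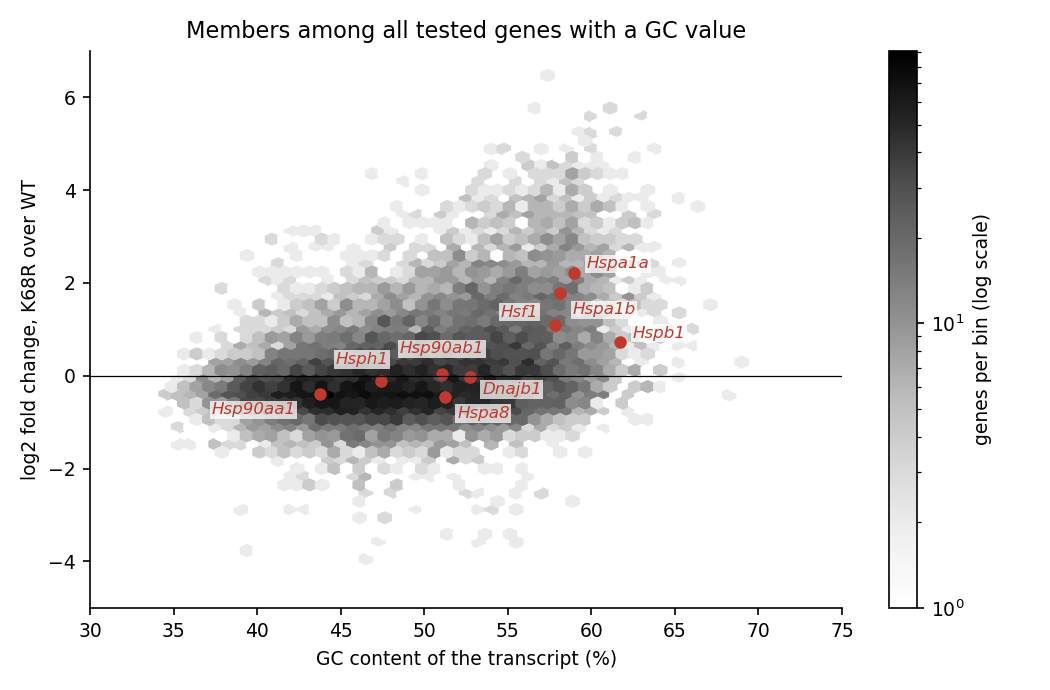
Log2 fold change of K68R over WT against GC content of the transcript for all tested genes with a GC value (grey bins, log colour scale) and the 9 members (red points). The members above zero by more than 0.5 are the 4 with a GC content of 57.8% or more.

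Hsf1 encodes the master regulator of the heat shock response and lies on chromosome 15 (76361562 to 76385355, plus strand, build mm39). Counted in CPM, K68R libraries gave 72.8, 73.6 and 70.3 for Hsf1, and WT libraries gave 33.3, 34.4 and 34.2. Every K68R value was above every WT value, and the spread within a genotype was small beside the gap. The means were 72.2 ± 1.68 for K68R and 33.98 ± 0.612 CPM for WT (SD, n = 3). K68R was higher by 1.09 on the log2 scale, with a standard error of 0.0378 (edgeR, adjusted p = 7.49e-38). With offsets the log2 fold change was 0.52, or 1.44-fold (edgeR, adjusted p = 6.61e-20), and over 19 alternatives the adjusted p ranged from 6.87e-156 to 6.61e-20. No stretch of 100 bases of the Hsf1 transcript occurred in a transcript of another gene. The 5 genes outside the list that lay closest to Hsf1 in centred log2 CPM over the 6 libraries were Gga3, Ppfia1, Wdr26, Alcam and Serpinb9b, at root-mean-square distances of 0.0175 to 0.0239. In all 442 tested genes lay within a distance of 0.1 of it.

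Hspa1a and Hspa1b, the stress-inducible Hsp70 genes, are single-exon genes on chromosome 17 (35188335 to 35191132 and 35175405 to 35178214, minus strand, build mm39), 10120 bases apart. They were the lowest members in both genotypes. Hspa1a had 216, 292 and 250 counts in the K68R libraries and 66, 50 and 79 in the WT libraries, which is 8.37, 9.36 and 8.10 CPM against 1.60, 1.60 and 2.36 CPM. The lowest K68R value was more than 3 times the highest WT value. Hspa1b stood at 31.1, 28.3 and 28.5 CPM in K68R and at 9.14, 8.15 and 8.23 CPM in WT, again with no overlap. The log2 fold changes were 2.22 with a standard error of 0.131 for Hspa1a (edgeR, adjusted p = 6.09e-25) and 1.77 with a standard error of 0.0662 for Hspa1b (edgeR, adjusted p = 5.30e-36). With offsets they were 1.37 and 1.05, or 2.59-fold and 2.07-fold.

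The coding sequences of Hspa1a and Hspa1b were 99.4% identical, with 8 differing bases and 3 bases in a gap. Of the 100-base stretches of their transcripts, 56.5% in Hspa1a and 49.9% in Hspa1b occurred exactly in a transcript of another gene, mostly the partner. Reads that map to more than one place were not counted, so both levels can be understated and the split between the pair is uncertain. Summed, the pair reached 37.9 ± 1.48 CPM in K68R against 10.4 ± 0.534 in WT (SD, n = 3), 3.64-fold higher (edgeR, adjusted p = 1.67e-40).

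Hspb1, which encodes the small heat shock protein Hsp25 that holds unfolded proteins and binds actin filaments, lies on chromosome 5 (135916773 to 135918417, plus strand, build mm39). K68R libraries had 238, 227 and 234 CPM of it, WT libraries 142, 140 and 139. All K68R libraries were above all WT libraries by more than the spread within either genotype. The log2 fold change of 0.73 with a standard error of 0.0236 (edgeR, adjusted p = 9.00e-40) was 0.80 with offsets, while those of Hsf1, Hspa1a and Hspa1b were smaller with these offsets. With length offsets alone Hspb1 was at 1.34 and Hsf1, Hspa1a and Hspa1b were at 1.21, 2.30 and 1.85 (log2). Of its 100-base stretches 42.7% also occurred in a transcript of another gene, mostly its pseudogene Hsp25-ps1.

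Hspa8, the constitutive Hsp70 that folds new proteins and uncoats clathrin vesicles, lies on chromosome 9 (40712572 to 40716498, plus strand, build mm39). It was at 1956, 1997 and 2004 CPM in K68R and at 2718, 2759 and 2747 CPM in WT. The 2 genotypes were far apart relative to their spread, with K68R lower. The log2 fold change was -0.47 with a standard error of 0.0159 (edgeR, adjusted p = 3.20e-38) and -0.15 with offsets (edgeR, adjusted p = 9.37e-14), and when the offsets were used with the library factors of the uncorrected counts it was 0.03 and not called (edgeR, adjusted p = 0.0545). Over all 19 alternatives the adjusted p reached 1, in the test against a 1.5-fold bound. Copies of Hspa8 are common in the genome, and 63.4% of its 100-base stretches occurred in transcripts of 9 other genes.

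Hsph1, the Hsp110 nucleotide exchange factor of Hsp70, lies on chromosome 5 (149540308 to 149562594, minus strand, build mm39). It was at 205, 200.03 and 198 CPM in K68R and 215, 220.1 and 213 CPM in WT. The groups did not overlap, but the gap was narrow. The log2 fold change was -0.11 with a standard error of 0.0227 (edgeR, adjusted p = 2.47e-05) and -0.14 with offsets (edgeR, adjusted p = 6.38e-08), and with the library factors of the uncorrected counts it turned to 0.05 (edgeR, adjusted p = 0.0604). With length offsets alone it was -0.55 (log2). An annotated gene on the opposite strand shares 1.37% of its exonic bases.

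Dnajb1, the Hsp40 protein that HSF1 induces together with the Hsp70 genes, lies on chromosome 8 (84334804 to 84339282, plus strand, build mm39). K68R libraries had 70.6, 70.0 and 74.7 CPM and WT libraries 74.6, 74.7 and 71.4, so the values overlapped. The log2 fold change of -0.04 with a standard error of 0.0335 did not pass the test (edgeR, adjusted p = 0.325). It was -0.09 with offsets (edgeR, adjusted p = 0.0132) and 0.10 with the library factors of the uncorrected counts (edgeR, adjusted p = 0.00675), so these called it in opposite directions. Over the 19 alternatives the adjusted p ranged from 4.86e-05 to 1.

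Of the Hsp90 genes, Hsp90aa1, the isoform that rises on stress, lies on chromosome 12 (110657470 to 110662829, minus strand, build mm39) and was at 1094, 1115 and 1085 CPM in K68R and 1442, 1402 and 1451 CPM in WT, all K68R values being lower. Its log2 fold change was -0.38 with a standard error of 0.0172 (edgeR, adjusted p = 2.33e-31), but 0.03 and not called with offsets (edgeR, adjusted p = 0.0685), the largest move with offsets among the 3 members called lower. Hsp90ab1, the constitutive isoform on chromosome 17 (45878704 to 45884187, minus strand, build mm39), was at 2508, 2527 and 2434 CPM in K68R and 2434, 2428 and 2442 CPM in WT. The third K68R library lay within the WT values. The log2 fold change was 0.03 with a standard error of 0.0161 (edgeR, adjusted p = 0.0607), and 0.27 with offsets (edgeR, adjusted p = 1.30e-24), and without K68R replicate 3 it was 0.05 and was called (edgeR, adjusted p = 0.0084). Of the 100-base stretches of Hsp90aa1 47.5% occurred in another gene's transcript, mostly the copy Gm12346, and none of Hsp90ab1 did.

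**Figure D3:**
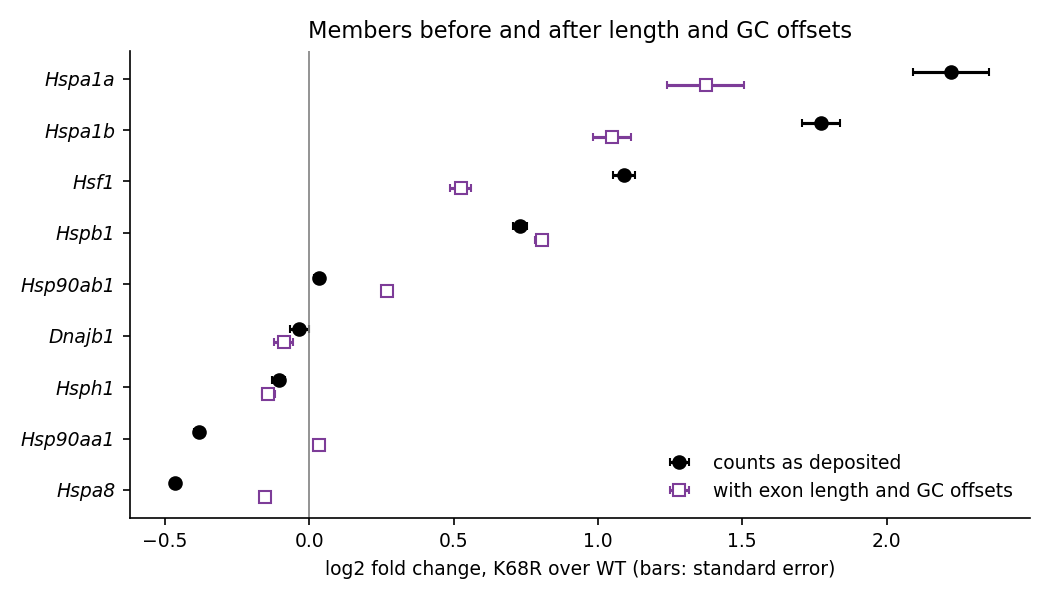
Log2 fold change of K68R over WT for each member from the deposited counts (black circles) and with exon length and GC offsets (open squares), with standard errors. Hspa1a, Hspa1b, Hsf1 and Hspb1 stay above 0.5 both ways, Hsp90aa1 moves from -0.38 to 0.03 and Hsp90ab1 from 0.03 to 0.27.

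Levels of different genes were compared as CPM per kilobase of exon. In WT the order was Hspa8 at 1303 ± 10.1, Hsp90ab1 at 971 ± 2.94, Hsp90aa1 at 502 ± 9.22, Hspb1 at 155 ± 1.44, Hsph1 at 33.7 ± 0.543, Dnajb1 at 22.8 ± 0.581, Hsf1 at 12.9 ± 0.233, Hspa1b at 3.03 ± 0.196 and Hspa1a at 0.662 ± 0.156 CPM per kilobase (SD, n = 3). In K68R the order changed in 2 places. Hsp90ab1, at 993 ± 19.7, stood above Hspa8 at 944 ± 12.3, and Hsf1, at 27.5 ± 0.640, stood above Dnajb1 at 22.2 ± 0.789 CPM per kilobase (SD, n = 3). In both genotypes every library of a gene was above every library of the next gene in the order. Since multi-mapped reads were not counted and Hspa8 shares many stretches with its copies while Hsp90ab1 shares none, their order is that of counted reads. The levels are without offsets, with which Hsf1 was 1.44-fold rather than 2.13-fold higher and Hspa8 1.11-fold rather than 1.38-fold lower. The order with offsets was not tested. Together the 9 genes made up 0.609 ± 0.00492% of counts in K68R libraries, below the 0.718 ± 0.00344% in WT libraries (SD, n = 3).

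Ratios of genes within a library do not depend on how libraries are scaled. In all 5 ratios were compared between genotypes with a two-sided exact permutation test over 20 assignments, in which 3 against 3 libraries cannot go below p = 0.1, and p-values were adjusted over the 5 (Benjamini-Hochberg). The summed inducible pair against Hspa8 was 0.0143 ± 0.000745 in K68R and 0.00284 ± 0.000164 in WT (SD, n = 3), 5.05-fold higher, with no overlap (exact p = 0.1, adjusted p = 0.125). Hsp90aa1 against Hsp90ab1 was 0.388 ± 0.00419 in K68R and 0.517 ± 0.00808 in WT (SD, n = 3), 1.33-fold lower, also with no overlap (exact p = 0.1, adjusted p = 0.125). For the co-factors of Hsp70, the K68R over WT quotient of the ratio to Hspa8 was 1.35 for Dnajb1 and 1.28 for Hsph1, with no overlap (exact p = 0.1, adjusted p = 0.125 each). The ratio of Hspa1a to Hspa1b was 0.296 ± 0.0324 in K68R and 0.220 ± 0.0593 in WT (SD, n = 3), and the values overlapped (exact p = 0.3, adjusted p = 0.3). The ratios were computed from counts without offsets, and the genes in a ratio differ in GC content.

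**Figure D4:**
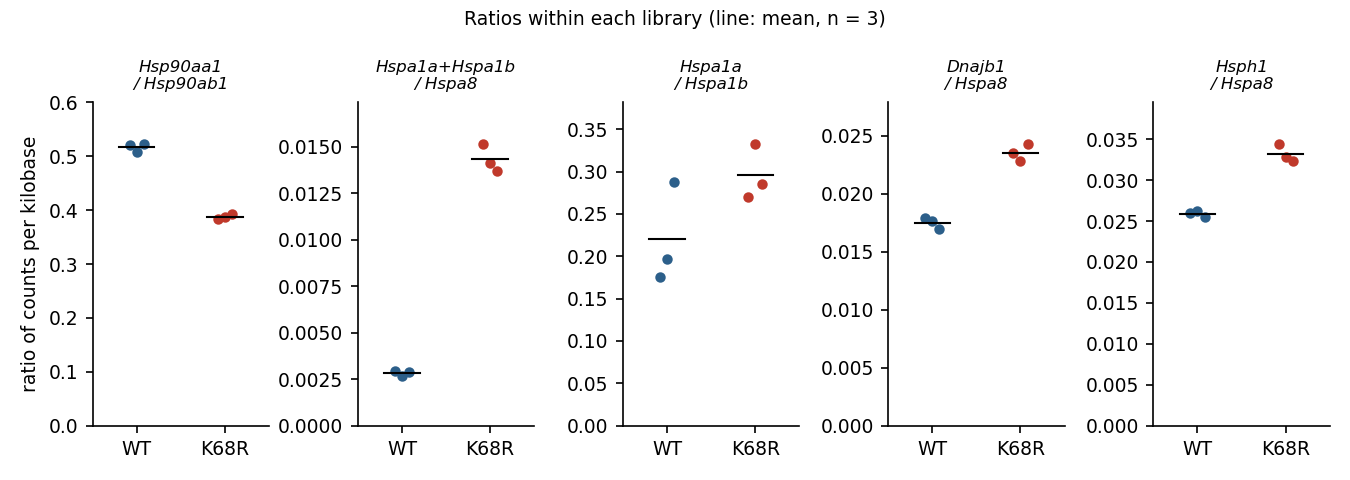
Ratio of counts per kilobase of exon within each library for 5 pairs of members, with 3 points and a mean line for each genotype and axes that start at 0. Only the ratio of Hspa1a to Hspa1b has overlapping values, and Hspa1a plus Hspa1b against Hspa8 is 0.00284 in WT and 0.0143 in K68R on average.

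The partners of the members were followed in 7 lists of 61 genes, of which 57 were tested. These had 16 genes higher, 33 lower and 8 that did not pass, and a median log2 fold change of -0.20, against a median of -0.01 over all genes tested. Adding offsets gave 22 higher and 28 lower genes, and their median was -0.09 beside 0.01 over all genes. These counts and those of each list stand beside 40.8% of all genes tested called higher and 40.5% lower. With offsets the share was 37.6% in each direction. Among the other heat shock factors and HSF binding proteins 1 of 4 tested genes was called higher and 0 lower, but 3 higher and 0 lower with offsets, and 2 higher and 1 lower with length offsets alone. The median moved from 0.03 to 0.36 with offsets (log2). The gene called without offsets was Hsf4, the factor of the lens, 3.02-fold higher at low levels of 1.23 ± 0.277 against 0.410 ± 0.199 CPM (SD, n = 3; edgeR, adjusted p = 5.03e-06), which a filter at 1 CPM removed from the test. With offsets Hsf4 was 1.89-fold higher (edgeR, adjusted p = 0.00703).

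The co-chaperones of Hsp70 held the largest difference of the partners, in Bag3, which links Hsp70 to small heat shock proteins in the clearance of damaged filaments and is itself a target of HSF1. Bag3 stood at 97.9 ± 3.16 CPM in K68R against 22.2 ± 1.75 in WT (SD, n = 3), 4.39-fold higher and 3.55-fold with offsets (edgeR, adjusted p = 2.70e-51 and 6.99e-42). The 8 genes of this list had 2 higher and 6 lower, or 4 and 3 with offsets, and their median was -0.19, or 0.18 with offsets (log2). Bag5, another exchange factor, was 1.75-fold lower, and Stub1, the ubiquitin ligase CHIP that marks Hsp70 clients for degradation, 1.31-fold lower, and with offsets these were 1.47-fold and 1.51-fold lower. Other genes share 11.2% of the exonic bases of Bag5 and 61.3% of those of Stub1, so Stub1 is uncertain, and with length offsets alone Stub1 was not called (edgeR, adjusted p = 0.0915). Of the other small heat shock proteins Hspb8, the partner of Bag3, was 1.22-fold higher, and Hspb6 and Hspb7 were 1.28-fold and 1.60-fold lower, with 2 of 5 not called and a median of 0.00433 (log2). With offsets these 3 were 1.53-fold higher and 1.19-fold and 2.42-fold lower, and the list had 2 higher and 2 lower, with 0.15 as its median. With length offsets alone Hspb6 was not called (edgeR, adjusted p = 0.366).

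Among the other Hsp70 and Hsp110 genes 5 were higher and 2 lower of 7, with a median log2 fold change of 0.67. With offsets 4 were higher and 2 lower and the median was 0.28, but not with the same genes, since Hspa12b turned from 0.89 to -0.61 (log2; edgeR, adjusted p with offsets = 2.35e-09) and Hspa1l was no longer called lower. Hspa4l, another Hsp110 gene, had 79.2 ± 2.19 CPM in K68R against 36.1 ± 1.01 in WT (SD, n = 3), 2.19-fold more (edgeR, adjusted p = 2.05e-39), or 2.33-fold with offsets. Hspa12a was 1.59-fold higher and the ribosome-associated Hspa14 1.98-fold lower, with 15.3% and 19.3% of their exonic bases shared with other genes. With offsets Hspa12a was 1.21-fold higher and Hspa14 1.41-fold lower. With length offsets alone Hspa4l, Hspa12a and Hspa14 were at 0.46, 0.14 and -0.65 (log2). Of 10 other Hsp40 genes 4 were higher and 6 lower, and the median was -0.11 (log2). With offsets 4 were higher and 5 lower, around a median of -0.07, and with length offsets alone 2 were higher and 8 lower. Several members changed sides with offsets: Dnajb2 turned from 0.33 to -0.66, Dnajb4 from -0.08 to 0.25 and Dnaja1 from -0.38 to 0.06 (log2), each called both ways. Dnajb5 had 33.2 ± 1.66 CPM in K68R against 11.6 ± 0.534 in WT (SD, n = 3), 2.87-fold more (edgeR, adjusted p = 6.50e-35), or 2.18-fold with offsets. Dnaja2 and Dnajc7 were 1.40-fold and 1.41-fold lower, and with offsets 1.03-fold and 1.402-fold lower.

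The 15 co-chaperones of Hsp90 had 3 genes higher, 9 lower and 3 that did not pass, or 5 higher and 8 lower with offsets, and their median was -0.20, or -0.09 with offsets (log2). Unc45a, which with Hsp90 folds myosin heads, stood at 92.3 ± 4.37 CPM in K68R against 24.9 ± 1.76 in WT (SD, n = 3), 3.68-fold higher, and 1.40-fold with offsets (edgeR, adjusted p = 8.06e-44 and 8.62e-16). Ptges3, the cochaperone p23, and Ppid, the cyclophilin of steroid receptor complexes, were 1.67-fold and 1.70-fold lower, and with offsets 1.19-fold and 1.24-fold lower. All 8 subunits of TRiC, the chaperonin ring that folds actin and tubulin, were lower, with a median of -0.64 and a range from Cct6a at -0.76 to Cct2 at -0.52 (log2). With offsets all 8 stayed lower with a median of -0.26, and with the library factors of the uncorrected counts 4 were lower and 2 higher. Other genes share 32.3% of the exonic bases of Tcp1, 9.42% of those of Cct7 and 7.99% of those of Cct8, so Tcp1 is less certain. Cct6a stood at 395 ± 3.77 CPM in K68R against 668 ± 1.61 in WT (SD, n = 3; edgeR, adjusted p = 1.26e-46), and Cct5 and Cct4 were 1.62-fold and 1.63-fold lower. With offsets Cct6a, Cct5 and Cct4 were 1.29-fold, 1.28-fold and 1.16-fold lower.

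**Figure D5:**
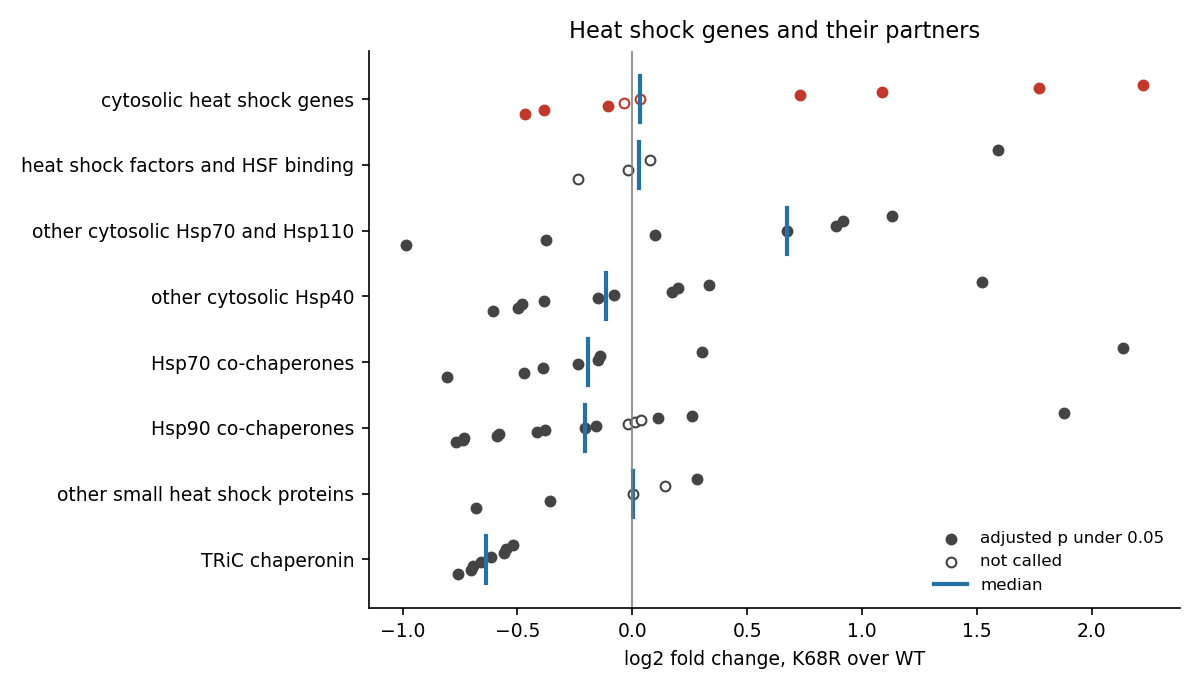
Log2 fold change of K68R over WT for each tested gene of the members (red) and of 7 lists of their partners (dark grey), filled where the adjusted p was under 0.05, with the median of each list as a blue line. The TRiC subunits lie together between -0.76 and -0.52, while Bag3, Unc45a, Hsf4 and Dnajb5 stand apart to the right in their lists.

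The cells carried fibroblast transcripts in both genotypes, with 10 of 10 markers tested and a summed level of 10774 to 10881 CPM in K68R and 7186 to 7279 CPM in WT. In K68R the sum rests on Vim, Col1a1 and Col1a2, and in WT mostly on Vim, at a mean of 4905 CPM. Without offsets the list was split, with 4 markers higher and 5 lower in K68R. Pdgfra was 5.56-fold, Lum 4.41-fold, Dcn 4.35-fold, Thy1 3.06-fold and Fap 1.91-fold lower, while Col1a1 was 14.8-fold, Col1a2 3.94-fold, Col3a1 2.89-fold and Pdgfrb 1.22-fold higher. With offsets those 5 stayed lower, and Col1a1, Col1a2 and Col3a1 were 2.74-fold, 1.55-fold and 1.93-fold higher. Pdgfrb turned to 2.21-fold lower, and Vim was called 1.23-fold higher (edgeR, adjusted p with offsets = 9.92e-50 and 1.26e-28). Of 12 skeletal muscle markers 10 were tested and all 10 were higher in K68R, with summed levels of 269.9 to 270.9 CPM against 87.7 to 90.0 CPM. All 6 epithelial markers were lower, at 18.4 to 20.5 against 46.0 to 47.6 CPM. No marker of these 3 lists was at 0 in all libraries, and the part of these cell types in the heat shock differences was not tested. In bulk samples fewer cells of a type and less RNA per cell cannot be told apart. Sod2 itself stood at 47.2 ± 1.62 CPM in K68R against 69.96 ± 1.58 in WT (SD, n = 3), 1.49-fold lower and 1.11-fold with offsets, and the counts do not show the knock-in codon. Library totals were 26200088 to 40691447 counts, and a floor of 3 counts was 0.0728 to 0.116 CPM, which covers counting error only. The labels give RNA integrity numbers only as above 4.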

How the data were processed

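RNA of 3 K68R and 3 WT libraries was made into sequencing libraries with a stranded poly(A) kit, per the labels' protocols. The authors' deposited values are raw, unnormalized counts, with 1 per read pair. The submitters' processing notes name HISAT2 2.2.1, featureCounts 2.0.6, bcl2fastq and SAMtools, and build mm39. Per the file headers, pairs were counted over exons of the NCBI RefSeq annotation, without a strand option and without multi-mapped reads, so copies lose reads and overlapping genes cannot be told apart. The deposited exonic length of each gene, in bases, was used for levels per kilobase.

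Counts were tested in R 4.3.3 with edgeR 4.0.16 (filterByExpr, TMM, robust quasi-likelihood F test, Benjamini-Hochberg over all genes tested, threshold 0.05). CPM used TMM-scaled library sizes. Offsets came from surfaces over log2 exon length and GC content fitted per library with mgcv 1.9.3 to log2 CPM (prior count 2), and TMM factors were computed again after the surface was removed, a choice made after seeing the data. GC content came from the longest coding transcript in GENCODE M21 (GRCm38), joined by symbol, for 15687 tested genes (93.8%). No coordinates were converted between builds. Promoters came from RefSeq, build GRCm38.p6, with 5 of 9 symbols matched. The fit was tested on simulated data.

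The chi-square per gene between libraries of 1 genotype was 1.85 to 2.29, where sampling noise alone would give about 1. Between libraries of different genotypes it was 323 to 422. Whether the spread within a genotype is biological or technical was not tested. The members and lists were chosen with earlier results of these data known. Named were the 9 members, Sod2, up to 3 called genes per partner list with the smallest p, and the 5 genes closest to Hsf1. Markers were described as lists, and Cct2, Hspa12b, Hspa1l, Dnaja1, Dnajb2, Dnajb4, Hsp25-ps1, Gm12346 and the named markers were chosen after their values were seen. Tcp1, Cct7 and Cct8 were named for the exonic bases they share with other genes. Of the marker lists not shown in the report, macrophage markers had 1 gene higher and 4 lower of 8, endothelial 2 higher and 0 lower of 5, neuronal 3 higher and 0 lower of 3 tested, and erythroid 0 called of 1 tested. These counts are without offsets. With offsets the macrophage markers Adgre1, Cd68, Lyz2 and Cd14 were called higher and Fcgr1 lower. Csf1r, Mrc1, Ptprc and the neuronal Map2 were then not called. Alternatives were DESeq2 1.42.0 and its size factors, upper quartile scaling, limma-voom (limma 3.58.1), 2 other filters, a replicate block, a 1.5-fold bound, an adjusted p under 0.01, length offsets, the summed Hspa1 pair and leaving out each library.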

Additional observations from a re-analysis of the deposited data

How the results depend on the processing

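Hsf1, Hspa1a, Hspa1b and Hspb1 were called higher under every alternative run, where summing the Hspa1 pair tested it as 1 gene. Members called lower went from 3 to 5 with upper quartile scaling and to 0 against a 1.5-fold bound. Against that bound 7 partner genes were higher and 9 lower. Of all 16730 genes tested, 13729 were called in either direction with upper quartile scaling and 6855 against the bound. Hsp90aa1 turned to 0.03 with length and GC offsets, and Hsp90ab1 to -0.083 with upper quartile scaling and -0.0061 with no filter (log2). Length and GC offsets with the library factors of the uncorrected counts were added after seeing the data. They changed the log2 fold change of a gene by a median of 0.28. They gave 7 members higher and 0 lower, and 30 partner genes higher and 19 lower, beside 12050 of 15687 genes called in either direction. Hspa8 was at 0.032, Hsph1 at 0.045, Dnajb1 at 0.10 and Hsp90aa1 at 0.22 (log2). Hsf1, Hspa1a, Hspa1b and Hspb1 then stood at 0.71 to 1.56 (log2). With upper quartile scaling the median change of the log2 fold change of a gene was -0.11. With the replicate number as a block 5 members were higher and 3 lower, the added one being Hsp90ab1 at 0.03 (edgeR, adjusted p = 0.033). Deviations of libraries with the same number correlated at -0.0095 to 0.0135, and those with different numbers at -0.0298 to 0.0165. With 3 libraries per genotype and little spread between them, these values cannot show whether a number marks a shared preparation. Hsp90ab1 was also called higher with DESeq2 size factors, a 1 CPM filter, limma-voom, length offsets and both kinds of length and GC offsets. Leaving out each library moved Hspa1a between 2.10 and 2.41 and Hsp90ab1 between 0.01 and 0.05 (log2). Ordered by CPM without length, 7 of 9 members kept their WT rank. Depth limits Hspa1a most, with 50 to 79 counts in WT.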

Other observations

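Processed copies of Hspb1 and Hsp90aa1 had counts of their own. Both copies were chosen after their values were seen, and copies of other members are not shown. Hsp25-ps1, a pseudogene of Hspb1, was 2.07-fold higher in K68R, at 2.08 ± 0.177 CPM against 1.00 ± 0.122 CPM (SD, n = 3; edgeR, adjusted p = 9.10e-06). Gm12346, a copy of Hsp90aa1, had 10.7 ± 1.29 CPM in K68R and 12.9 ± 0.541 in WT (SD, n = 3), 1.20-fold less (edgeR, adjusted p = 0.00143). Without offsets both copies moved in the direction of the gene they resemble, beside 40.8% of all genes tested called higher and 40.5% lower. With offsets, which are not given for the copies, Hsp90aa1 was at 0.03 (log2) and not called (edgeR, adjusted p = 0.0685). Counts of the copies were 0.890% and 0.712% of those of Hspb1 in K68R and WT, and 0.980% and 0.905% of those of Hsp90aa1. Whether the reads came from the copies or from the parent genes was not tested.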
